A study of Homo sapiens with 2 samples.

Results

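The expression of the ABC, SLC22 and SLCO transporter genes was compared between A549 cells overexpressing MYOCD (MYOCD) and A549 cells with no treatment (WT). These genes were taken by symbol. The rule kept ABC followed by a letter A to G and a number, SLC22A followed by a number, and SLCO followed by a number, a letter and a number. The peptide transporter genes TAP1 and TAP2 and the pseudogenes were left out. It gave 79 genes of the 56255 gene symbols in the table, which were 45 ABC, 22 SLC22 and 12 SLCO genes. The A549 line was established from a human lung adenocarcinoma. Myocardin, the product of MYOCD, works with the transcription factor SRF and drives smooth and cardiac muscle genes. The labels do not say how MYOCD was introduced, for how long, or whether the cells were a pool or a single clone, and they name no empty-vector control. Each group was 1 library, so the values carry no replicate error, and no difference could be set against the spread between cultures.

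ABC proteins use ATP to move substrates across a membrane, and those of the plasma membrane mostly carry drugs, conjugates, sterols or phospholipids out of the cell. SLC22 proteins carry organic cations, zwitterions and anions such as carnitine, metformin and urate. SLCO genes encode the organic anion transporting polypeptides, which mostly bring bile acids, steroid conjugates, thyroid hormones, statins and some anticancer drugs into the cell. In lung epithelium the best known of these genes is ABCA3, which loads surfactant phospholipid into lamellar bodies, and in lung cancer lines the exporters of the ABCC and ABCG subfamilies are studied for drug resistance.

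The values are RPKM, read numbers scaled to gene length and library size, so levels can be compared between genes of different length. A gene was counted when it had at least 1 RPKM in at least 1 library. Its log2 change was log2((MYOCD RPKM + 0.5)/(WT RPKM + 0.5)), and it was called higher or lower at 2-fold or more on that scale. That rule sorts genes by size of difference and tests nothing. The pseudocount of 0.5 RPKM makes the change of low genes smaller than the ratio of their RPKM values, so ratios are given beside it where they matter. The depth of the libraries is not stated. The table summed to 870531 RPKM in MYOCD cells and 877589 RPKM in WT cells, with 15973 and 16161 gene symbols at 1 RPKM or more. The MYOCD gene itself stood at 48.6 RPKM in the MYOCD library, against 0.304 RPKM in the WT library. Of 10 markers of A549 and lung epithelium 7 were counted, 5 of them above 0 in log2 change, and EPCAM was higher by 2-fold, with 2.57 RPKM in MYOCD cells and 0.889 RPKM in WT cells. EPCAM and NAPSA passed the filter only through the MYOCD library, in which they were higher, so that count carries this choice. The keratins KRT8 (1059 RPKM in MYOCD cells, 1523 RPKM in WT cells), KRT18 (1134 and 1647 RPKM) and KRT7 (1386 and 996 RPKM) were abundant in both libraries. Of the alveolar type II markers, NAPSA had 1.04 RPKM in MYOCD cells and 0.394 RPKM in WT cells, SFTPC was at 0 in both and NKX2-1 at 0 in MYOCD cells and 0.0812 RPKM in WT cells. Of 5 smooth muscle markers 3 were counted and TAGLN alone was higher by 2-fold, with 6.93 RPKM in MYOCD cells and 2.34 RPKM in WT cells. ACTA2 differed little (8.97 RPKM in MYOCD cells, 8.28 RPKM in WT cells), and MYH11 (1.24 and 0.830 RPKM) reached 1 RPKM only in the MYOCD library. CNN1 (0.328 and 0.355 RPKM) and DES (0 and 0.0678 RPKM) were not counted. The 4 fibroblast, 3 endothelial, 4 kidney tubule and 4 gut marker genes had no member at 1 RPKM. ALB was the 1 counted liver marker of 4, at 0.779 RPKM in MYOCD cells and 1.46 RPKM in WT cells, and ITGAM the 1 counted blood marker of 4, at 1.05 and 1.47 RPKM, with PTPRC and CD3E at 0 in both.

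Most of the transporter genes differed little between the libraries, and the larger differences lay in a few named genes. The SLCO1 subfamily genes SLCO1C1, SLCO1B7 and SLCO1B3, which are neighbours on chromosome 12, were higher in MYOCD cells. The uptake transporter gene SLCO2B1, the porphyrin-linked transporter gene ABCB6 and the drug exporter gene ABCG2 were lower. In bulk libraries such as these, fewer cells expressing a gene and less RNA per cell cannot be told apart. Of the 79 genes 39 were counted, and these were 25 of 45 ABC, 7 of 22 SLC22 and 7 of 12 SLCO genes. By the 2-fold rule 3 of the 39 counted genes (7.69%) were higher and 3 (7.69%) lower in MYOCD cells. Among all 17350 counted genes 5.42% were higher and 6.35% lower, and over the 12337 counted protein-coding genes 3.02% were higher and 3.10% lower. The shares among the transporter genes rest on 3 genes each, with no test behind them. At 1.5-fold 6 genes were higher and 6 lower, where 8.52% and 8.89% of the counted protein-coding genes were. The median log2 change was 0.074 over the 39 counted genes, against 0.0038 over the protein-coding genes and 0.043 over 186 other counted SLC genes, of which 3 were higher and 9 lower. A change under 1.5-fold was found for 27 of the 39. All 39 counted genes had at least 1 RPKM in the MYOCD library and 36 did in the WT library. SLCO1B1, SLCO1B7 and SLCO1C1 therefore passed the filter only through the library in which they were higher, and counts or medians that include them carry that choice.

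**Figure D1:**
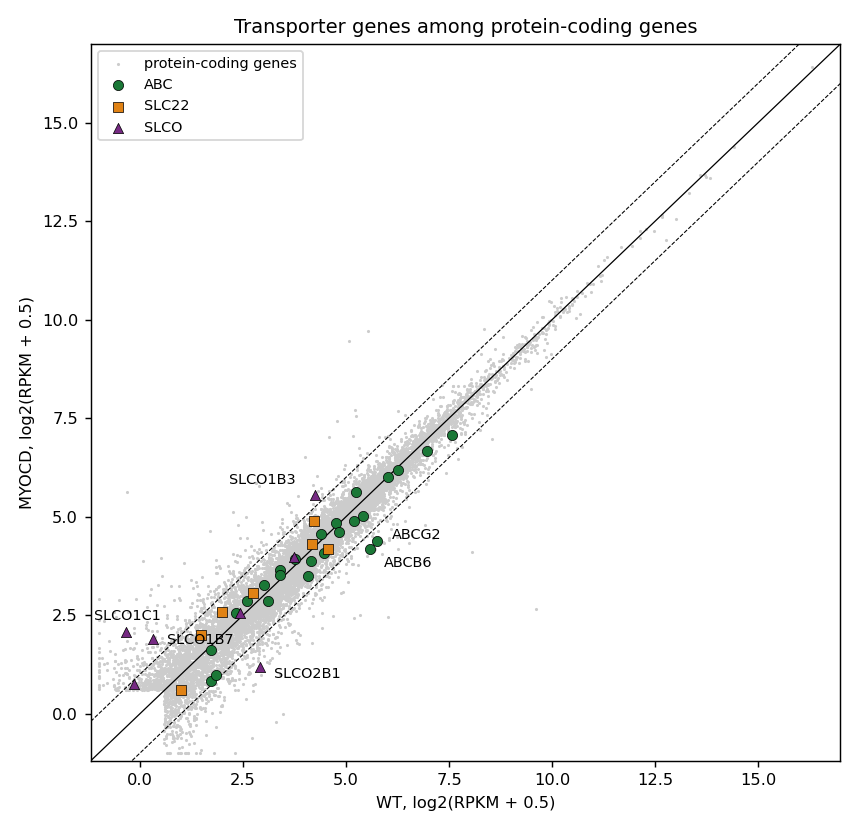
Each point is a protein-coding gene of at least 1 RPKM in at least 1 library, with log2(RPKM + 0.5) in the WT library on the horizontal axis and in the MYOCD library on the vertical axis. Circles, squares and triangles are the 25 ABC, 7 SLC22 and 7 SLCO genes, the solid line is equality and the dashed lines are 2-fold, and the 6 labelled genes lie beyond them.

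The exporters of drugs and conjugates held the most abundant transporter transcripts of both libraries. ABCC3, ABCC2 and ABCC1, multidrug resistance proteins that export glutathione, glucuronide and sulfate conjugates, held ranks 1, 2 and 3 among the ABC genes in both. Together they made up 43.3% of the summed ABC RPKM in MYOCD cells and 44.7% in WT cells. ABCC3 had 134 RPKM in MYOCD cells, against 190.3 RPKM in WT cells (log2 change -0.51). For ABCC2 the levels were 100.9 RPKM in MYOCD cells and 124 RPKM in WT cells (log2 change -0.30), and for ABCC1 they were 72.8 and 76.1 RPKM (-0.063). These 3 genes thus kept their order, with the difference between the libraries shrinking from the most to the least abundant of them. ABCC4, an exporter of cyclic nucleotides and prostaglandins, had 23.7 RPKM in MYOCD cells and 27.9 RPKM in WT cells. ABCC5, a related exporter of cyclic nucleotides, had 10.9 RPKM in MYOCD cells and 9.98 RPKM in WT cells, and ABCC10, which can export taxanes, had 11.9 and 9.95 RPKM. None of the ABCC genes of this role reached 2-fold.

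ABCG2 (ENSG00000118777, GRCh38 chr4:88090264-88231322, minus strand) was the exporter that differed most. It encodes the breast cancer resistance protein, a half-transporter that works as a dimer and exports urate, topotecan, mitoxantrone and many other drugs. It had 20.4 RPKM in MYOCD cells, against 53.5 RPKM in WT cells, a log2 change of -1.37, with the WT level 2.62 times the MYOCD level. Among the ABC genes it held rank 11 in MYOCD cells and rank 5 in WT cells. Of the 9 other counted coding genes within 500 kb of it none was lower by 2-fold. No 50-base stretch of its longest transcript occurred in a transcript of another gene. A small RNA pseudogene, RNU6ATAC31P, lies inside the gene. Over the 11 genes of this role, 7 were counted, 1 was lower and none higher, the median log2 change was -0.23, and the summed RPKM was 375 in MYOCD cells and 493 in WT cells. P-glycoprotein (ABCB1), the classic multidrug exporter, was not counted, with 0.165 RPKM in MYOCD cells and 0.579 RPKM in WT cells, and the bile salt export pump ABCB11 was at 0.0121 RPKM and 0.

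**Figure D2:**
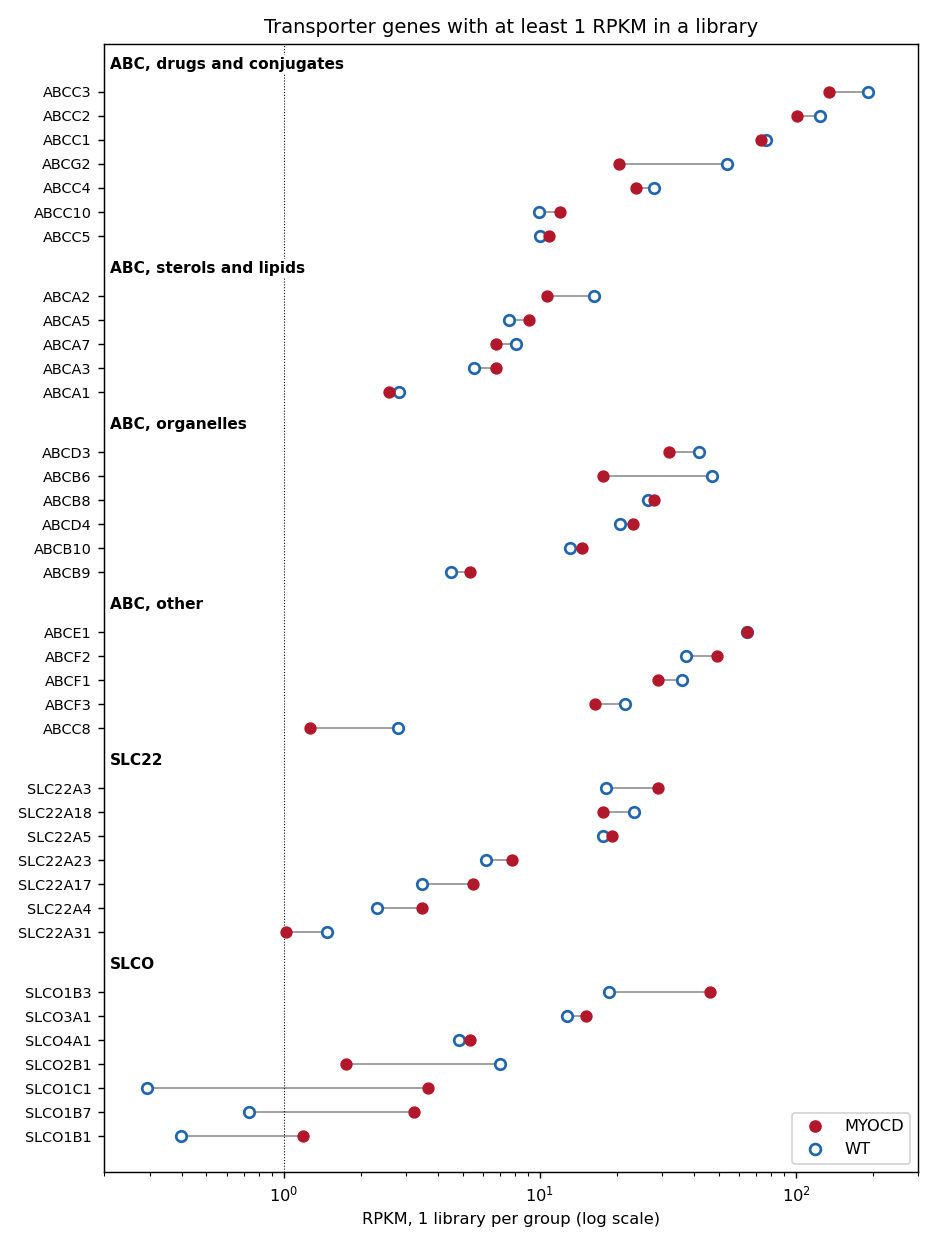
RPKM of 37 of the 39 counted genes on a log scale, filled points for the MYOCD library and open points for the WT library, grouped by role and ordered by mean level within a group. ABCC3, ABCC2 and ABCC1 sit at the top of both libraries, ABCG2, ABCB6 and SLCO2B1 have their MYOCD point to the left of the WT point, and the SLCO1 genes have it to the right.

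The sterol and lipid exporters were mostly low, and none of the 5 counted of 17 reached 2-fold (median log2 change -0.11). ABCA2, a lipid transporter of endosomes and lysosomes, differed most, with 10.7 RPKM in MYOCD cells and 16.3 RPKM in WT cells (log2 change -0.59). The surfactant lipid transporter ABCA3 was at 6.72 RPKM in MYOCD cells and 5.55 RPKM in WT cells. ABCA5, a lysosomal member of the subfamily, had 9.08 RPKM in MYOCD cells and 7.59 RPKM in WT cells. These differences run in both directions. ABCA7, a phospholipid transporter linked to Alzheimer disease risk, had 6.75 RPKM in MYOCD cells and 8.08 RPKM in WT cells. ABCA1, which hands cholesterol to apolipoprotein A-I, had 2.58 and 2.81 RPKM. Among those not counted, ABCG1, which passes sterol to high-density lipoprotein, had 0.358 RPKM in MYOCD cells and 0.793 RPKM in WT cells, and the retinal transporter ABCA4 had 0.00773 and 0.440 RPKM.

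Among the ABC genes of mitochondria, peroxisomes and lysosomes, 8 of 9 were counted and ABCB6 alone reached 2-fold. ABCB6 (ENSG00000115657, GRCh38 chr2:219209766-219219017, minus strand) encodes a half-transporter linked to porphyrin transport. It had 17.6 RPKM in MYOCD cells, against 47.0 RPKM in WT cells, a log2 change of -1.39, with the WT level 2.67 times the MYOCD level. Its rank among the ABC genes was 12 in MYOCD cells and 6 in WT cells. Within 500 kb, 20 other coding genes were counted and none was higher or lower by 2-fold. The gene model AC068946.2 overlaps both ABCB6 and ATG9A and shares 90.8% of the 50-base stretches of the longest ABCB6 transcript, so counting could have split reads between the models. The deposited values hold no row under the gene ID of AC068946.2, and the annotation used in counting is not given. The part of any such split in the ABCB6 values was not tested. ATG9A, the next coding gene upstream, had 29.7 RPKM in MYOCD cells and 27.9 RPKM in WT cells.

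ABCD3, a peroxisomal transporter of branched-chain fatty acids and bile acid precursors, had 31.99 RPKM in MYOCD cells and 41.9 RPKM in WT cells, a difference of less than 1.5-fold. ABCD4, which carries cobalamin out of lysosomes with its partner LMBRD1, had 23.1 RPKM in MYOCD cells and 20.6 RPKM in WT cells, where LMBRD1 had 8.25 and 12.7 RPKM. Of the mitochondrial transporters, ABCB8 had 27.9 and 26.5 RPKM and ABCB10, which supports haem synthesis, had 14.6 and 13.1 RPKM in MYOCD and WT cells. The lysosomal peptide transporter ABCB9 had 5.33 RPKM in MYOCD cells and 4.49 RPKM in WT cells. The median log2 change of the 8 counted genes was -0.11, with 4 above and 4 below 0.

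The remaining counted ABC genes mostly encode proteins without membrane domains that work in translation. ABCE1, the ribosome recycling factor, was level in both libraries, with 64.3 RPKM in MYOCD cells and 64.5 RPKM in WT cells. ABCF2 had 49.1 RPKM in MYOCD cells and 37.0 RPKM in WT cells, whereas ABCF1 had 28.9 and 35.9 RPKM and ABCF3 had 16.4 and 21.6 RPKM. The ABCF genes therefore did not share a direction. ABCC8, the regulatory subunit of an ATP-sensitive potassium channel, had 1.27 RPKM in MYOCD cells and 2.79 RPKM in WT cells (log2 change -0.89), with its channel partner KCNJ11 under 1 RPKM in both. The WT level of ABCC8 was 2.20 times the MYOCD level, so the pseudocount kept this gene inside the 2-fold line. Over the 25 counted ABC genes the median log2 change was -0.23, with 9 above and 16 below 0, none higher and 2 lower by 2-fold. That count of lower genes depends on the pseudocount. The summed RPKM of the ABC genes was 709.8 in MYOCD cells and 873.4 in WT cells.

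**Figure D3:**
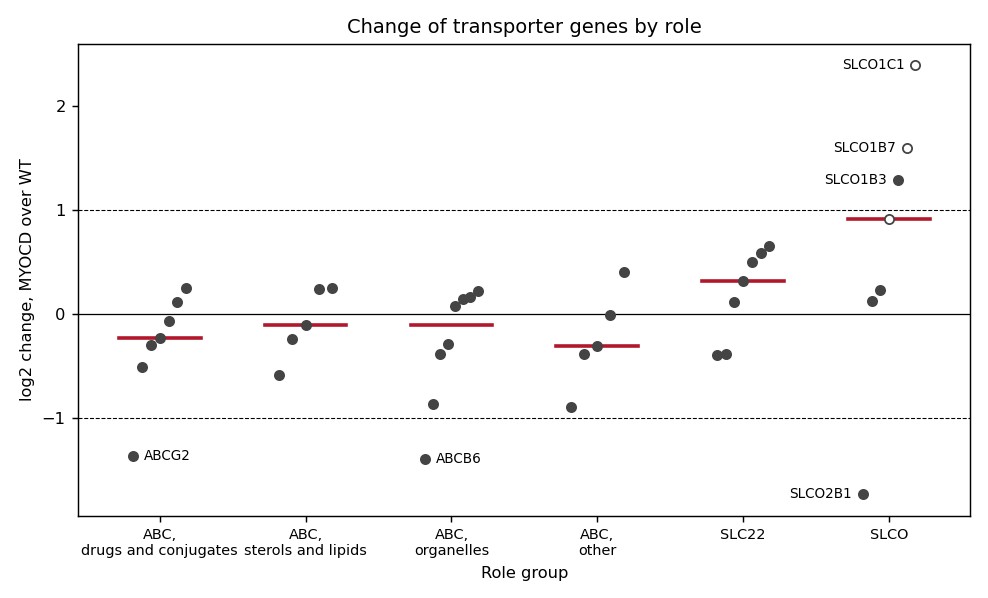
Log2 change, MYOCD over WT, of each counted gene by role group, with the group's median as a red line, 0 as a solid line and 2-fold as dashed lines. Open points are the 3 genes that reached 1 RPKM only in the MYOCD library, all of them SLCO genes, and the ABC groups have medians between -0.31 and -0.11.

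No SLC22 gene reached 2-fold. SLC22A3, an organic cation transporter that takes up monoamines and metformin, differed most, with 28.9 RPKM in MYOCD cells and 18.2 RPKM in WT cells (log2 change 0.65). It was the most abundant SLC22 gene in MYOCD cells, with 34.1% of the family's RPKM, and held rank 2 in WT cells, with 24.5%. SLC22A18, an imprinted gene of chromosome 11, had 17.6 RPKM in MYOCD cells, against 23.2 RPKM in WT cells, and held rank 3 in MYOCD cells and rank 1 in WT cells. Its antisense neighbour SLC22A18AS had 2.16 RPKM in MYOCD cells and 3.13 RPKM in WT cells, and reads of the pair cannot be told apart if strand was not used in counting.

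The carnitine transporter SLC22A5 had 19.2 RPKM in MYOCD cells and 17.6 RPKM in WT cells, and its neighbour on chromosome 5, the ergothioneine transporter SLC22A4, had 3.48 and 2.31 RPKM. SLC22A17, a receptor for the siderophore-binding protein lipocalin-2, had 5.49 RPKM in MYOCD cells and 3.47 RPKM in WT cells (log2 change 0.59). This symbol stands on a further row of the table, at 1.51 RPKM in MYOCD cells and 1.54 RPKM in WT cells, and with both rows summed the log2 change was 0.44. The orphan members SLC22A23 (7.78 RPKM in MYOCD cells, 6.15 RPKM in WT cells) and SLC22A31 (1.02 and 1.48 RPKM) went in opposite directions. The median of the 7 counted SLC22 genes was 0.32, with 5 above and 2 below 0. Most of the family was silent or nearly so. Of the 15 SLC22 genes not counted, 9 were listed at 0 in both libraries, among them the kidney anion transporters SLC22A6 and SLC22A8. The kidney cation transporter SLC22A2 was at 0 in MYOCD cells and at 0.0756 RPKM in WT cells.

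The SLCO genes held the widest differences of the 3 families. The genes of the SLCO1 subfamily were all at a higher value in MYOCD cells, and SLCO2B1 was lower. SLCO1B3 (ENSG00000111700, GRCh38 chr12:20810702-20916911, plus strand) encodes OATP1B3, which in liver takes up bilirubin conjugates, bile acids, statins and taxanes. It had 46.1 RPKM in MYOCD cells, against 18.6 RPKM in WT cells, a log2 change of 1.29 and a ratio of 2.48. It was the most abundant SLCO gene in both libraries, with 59.4% of the family's RPKM in MYOCD cells and 40.9% in WT cells. Tumours of several tissues are known to use a shorter SLCO1B3 transcript from another start site, and one RPKM value per gene cannot tell it from the liver transcript.

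SLCO1C1 (ENSG00000139155, GRCh38 chr12:20695355-20753386, plus strand) encodes a thyroxine transporter best known from the blood-brain barrier. It stood at 3.67 RPKM in MYOCD cells, against 0.294 RPKM in WT cells, a log2 change of 2.39 and a ratio of 12.5, the largest of the counted transporter genes. Its rank among the SLCO genes was 4 in MYOCD cells and 8 in WT cells. Its transcript shared no 50-base stretch with other genes. SLCO1B7 (ENSG00000205754, GRCh38 chr12:20962768-21092745, plus strand), a close relative of SLCO1B3, had 3.23 RPKM in MYOCD cells, against 0.732 RPKM in WT cells (log2 change 1.60, ratio 4.41). SLCO1B1, which encodes the main statin uptake transporter of hepatocytes, had 1.19 RPKM in MYOCD cells and 0.396 RPKM in WT cells (log2 change 0.91, ratio 2.99). The remaining gene of the subfamily, SLCO1A2, was not counted, with 0.927 RPKM in MYOCD cells and 0.623 RPKM in WT cells.

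How many reads stand behind the lowest of these values could only be approximated. In gene models with 1 transcript the product of RPKM and length in kilobases, at low values, fell most often between 0.06 and 0.07 in the MYOCD library and between 0.05 and 0.06 in the WT library. If that is the worth of 1 read, SLCO1C1 rested on about 275 reads in MYOCD cells and 26 in WT cells. SLCO1B7 would rest on about 140 and 38 reads, and SLCO1B1 on about 41 and 16. SLCO1B3 would rest on about 2513 and 1196 reads on the same scale, and SLCO2B1 on about 279 and 1312. Whole reads were not recovered for the table, so these are rough sizes and no counting interval was computed from them.

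**Figure D4:**
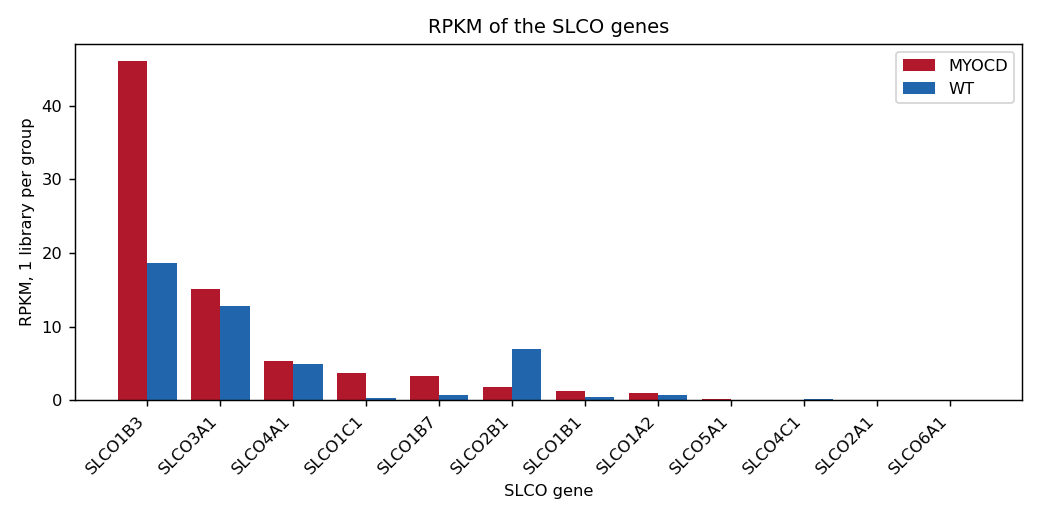
RPKM of the 12 SLCO genes in the MYOCD library (left bar of each pair) and the WT library (right bar), 1 library per group and no error bars. SLCO1B3 is the tallest in both at 46.1 and 18.6 RPKM, and SLCO2B1 is the gene whose WT bar stands clearly above its MYOCD bar.

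SLCO2B1 (ENSG00000137491, GRCh38 chr11:75100563-75206549, plus strand) encodes a widely expressed carrier of sulfated steroids and statins. It had 1.75 RPKM in MYOCD cells, against 6.97 RPKM in WT cells, a log2 change of -1.73, with the WT level 3.99 times the MYOCD level. Its share of the SLCO RPKM was 2.25% in MYOCD cells and 15.4% in WT cells. Of the 9 other coding genes counted within 500 kb, 2 were also lower by 2-fold. ARRB1, which encodes a beta-arrestin, had 1.76 RPKM in MYOCD cells and 5.76 RPKM in WT cells (log2 change -1.47), and GDPD5 had 2.86 and 8.01 RPKM (-1.34). The widely expressed SLCO3A1 (15.1 RPKM in MYOCD cells, 12.8 RPKM in WT cells) and SLCO4A1 (5.35 and 4.85 RPKM) stayed under 1.5-fold. SLCO2A1, the prostaglandin transporter, and SLCO6A1 were listed at 0 in both libraries.

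The summed RPKM of the SLCO genes was 77.6 in MYOCD cells and 45.4 in WT cells. The median log2 change of the 7 counted SLCO genes was 0.91, and over all 12 SLCO genes without a filter it was 0.25, with 8 above 0, 2 below and 2 at 0. Outside the SLCO1 subfamily no transporter gene was higher by 2-fold, and 3 were lower. Over the 45 ABC genes without a filter the median was -0.13, and over the 22 SLC22 genes it was 0.0.

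The SLCO1 genes lie side by side on chromosome 12 over 724 kb, in the order SLCO1C1, SLCO1B3, SLCO1B7, SLCO1B1 and SLCO1A2. All 5 had a log2 change above 0, between 0.35 and 2.39. Of 15 other coding genes within 1 Mb, 10 were counted, 1 was higher and 1 lower by 2-fold. The higher one, RP11-125O5.2, is a gene model that overlaps SLCO1B7 and SLCO1B1, at 2.004 RPKM in MYOCD cells and 0.286 RPKM in WT cells (log2 change 1.67). A further such model, RP11-545J16.1, overlaps SLCO1B3 and SLCO1B7 and had 2.17 RPKM in MYOCD cells and 0.956 RPKM in WT cells (0.87). Shared 50-base stretches made up 84.4% of the longest SLCO1B7 transcript, 67.4% of SLCO1B3 and 9.27% of SLCO1B1. The values of SLCO1B3, SLCO1B7 and the overlapping models are therefore not independent of each other, and the part of this in the differences was not tested. The neighbours that overlap no SLCO1 gene differed less on one side, where PDE3A had 14.1 RPKM in MYOCD cells and 12.7 RPKM in WT cells. On the other side PYROXD1 was lower, at 4.24 RPKM in MYOCD cells and 11.7 RPKM in WT cells (log2 change -1.37), while the abundant LDHB differed little (-0.041).

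**Figure D5:**
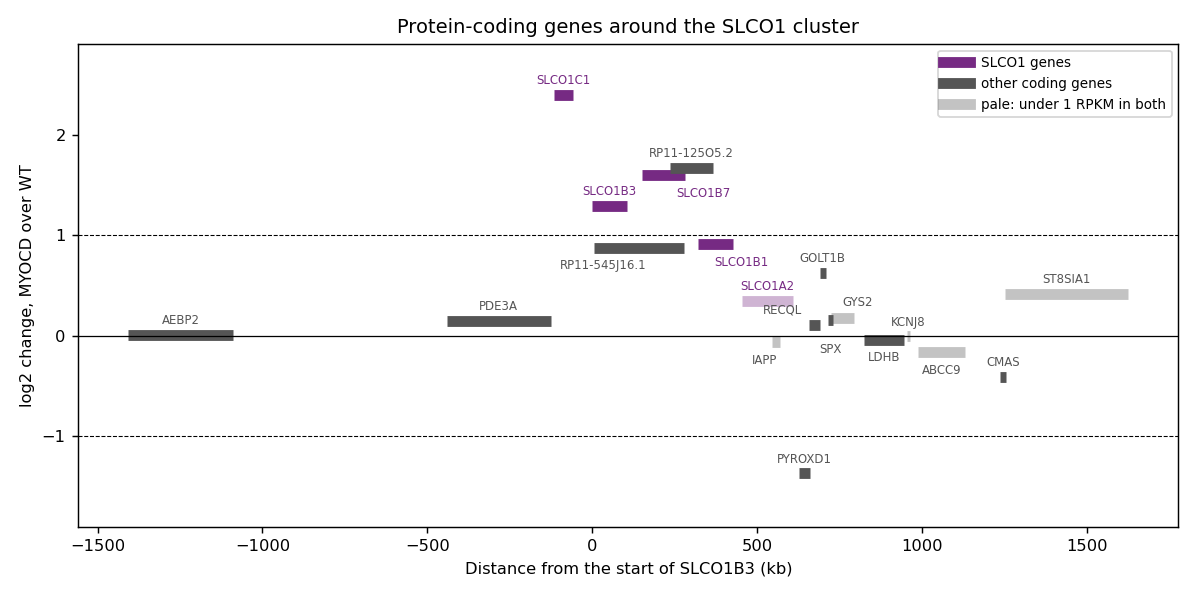
Log2 change, MYOCD over WT, of each protein-coding gene within 1 Mb of the SLCO1 genes on chromosome 12, drawn as a bar over its extent in kb from the start of SLCO1B3. The SLCO1 genes (purple) lie above 0 at 0.35 to 2.39, PYROXD1 lies at -1.37, and pale bars are genes under 1 RPKM in both libraries.

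The SLCO1B3 and SLCO1B1 start sites have RefSeq promoter entries, and the 250 bases before each start are shown because the genes are close relatives and both had higher values in MYOCD cells. Both are given 5′ to 3′ on the plus strand of GRCh38.p14, from chr12:20810455-20810704 for SLCO1B3 and from chr12:21130944-21131193 for SLCO1B1. Which SLCO1B3 start the A549 cells used, this one or that of the shorter transcript, was not tested. Capitals mark GTTAATNAT, a run of letters that both stretches hold.
SLCO1B3: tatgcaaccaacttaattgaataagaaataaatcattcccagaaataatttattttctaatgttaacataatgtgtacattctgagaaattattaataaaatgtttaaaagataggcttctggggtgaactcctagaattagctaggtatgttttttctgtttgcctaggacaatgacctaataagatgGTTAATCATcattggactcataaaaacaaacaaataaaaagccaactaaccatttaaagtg
SLCO1B1: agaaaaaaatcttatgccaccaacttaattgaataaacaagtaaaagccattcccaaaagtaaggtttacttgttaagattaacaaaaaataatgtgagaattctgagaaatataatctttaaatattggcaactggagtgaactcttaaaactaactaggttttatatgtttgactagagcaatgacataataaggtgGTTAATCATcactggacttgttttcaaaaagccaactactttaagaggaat
In a global alignment of the 250-base stretches 182 positions were identical, 44 differed and 48 were gaps, so that 80.5% of the aligned bases were identical. Counted from the start site, this run lay at -61 to -53 in SLCO1B3 and at -51 to -43 in SLCO1B1. It was chosen after the sequences had been seen. The run was searched on both strands over 250 bases before to 50 after each start. Of the 29 counted transporter genes with a promoter entry, SLCO1B3 and SLCO1B1 alone held it. It was taken from these 2 genes, so that count was fixed in advance and cannot be set against other shares. The run was in 0.782% of all counted genes with an entry and in 0.963% of all genes of the promoter table. A match of letters is a description and shows no binding.

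The same windows were searched for the core of the antioxidant response element, TGACNNNGC, since NRF2, encoded by NFE2L2, is known to act on ABCC genes. A549 cells are known for a KEAP1 mutation and active NRF2. The core was present in 10 of 29 counted transporter genes (34.5%), against 19.4% of all counted genes with an entry. These were ABCB6, ABCG2, ABCA2, ABCF1, ABCC4, ABCD4, ABCB9, ABCA5, ABCC10 and ABCA3. The abundant ABCC1, ABCC2 and ABCC3 were not among them. Only 29 of the 39 counted genes had a promoter entry and were searched, and cores outside these windows would be missed. Of the 10 genes with the core 5 were above and 5 below 0 (median log2 change -0.032), and of the 19 without it 11 were above and 8 below (0.12). The core in the ABCB6 promoter is shown with its surroundings, from GRCh38.p14 chr2:219219086-219219126 on the minus strand, with the core in capitals, because ABCB6 had the lowest log2 change of these 10.
ABCB6: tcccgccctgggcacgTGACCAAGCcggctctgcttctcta
It lay at -152 to -144 from the start site. The CArG box, the site of SRF, was found in none of the 29 promoters, against 1.44% of counted genes. That says only that its letters are not in these windows. NFE2L2 had 47.8 RPKM in MYOCD cells and 74.6 RPKM in WT cells (log2 change -0.63), and KEAP1 had 30.7 and 49.4 RPKM (-0.68).

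Of 26 further drug transporter genes 16 were counted, none was higher and 1 was lower by 2-fold, and 3 were lower by 1.5-fold. Over the counted protein-coding genes 3.02% were higher and 3.10% lower by 2-fold, and 8.89% lower by 1.5-fold. Single calls in so short a list say nothing about the list as a whole. SLC51B, the beta subunit of the bile acid and steroid exporter, was the gene lower by 2-fold. It had 0.190 RPKM in MYOCD cells and 2.52 RPKM in WT cells (log2 change -2.13), where its alpha subunit SLC51A had 2.34 and 3.91 RPKM. SLC29A4, a monoamine transporter that also carries metformin, had 9.90 RPKM in MYOCD cells and 17.6 RPKM in WT cells (log2 change -0.80). The 3 most abundant were the cystine transporter SLC7A11 (97.7 RPKM in MYOCD cells, 96.5 RPKM in WT cells), the major vault protein gene MVP (61.8 and 41.7 RPKM) and the folate carrier SLC19A1 (43.8 and 39.5 RPKM).

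A list for the regulation of transporter genes and the sterol response held 26 genes, the overexpressed MYOCD left out. Of these 23 were counted, 1 was higher and 1 lower. The higher one was HNF4A, which encodes a liver-enriched factor and had 10.7 RPKM in MYOCD cells and 4.36 RPKM in WT cells (log2 change 1.20). MYLIP, which encodes a ubiquitin ligase of the sterol response, was lower, with 0.744 RPKM in MYOCD cells and 2.63 RPKM in WT cells (log2 change -1.33). The aryl hydrocarbon receptor AHR, a known regulator of ABCG2, had 13.6 RPKM in MYOCD cells and 27.5 RPKM in WT cells (-0.99) and lay just inside the 2-fold line. Any link of this to the level of ABCG2 was not tested. The ratio of AHR, 0.494, was beyond 2-fold. So was that of VDR, 2.30, with 1.93 RPKM in MYOCD cells and 0.838 RPKM in WT cells (log2 change 0.86). The counts of this list therefore depend on the pseudocount. With 3.02% of the counted protein-coding genes higher and 3.10% lower by 2-fold, single calls say nothing about the list as a whole. The most abundant by the mean of both libraries were HIF1A (198 RPKM in MYOCD cells, 150.3 RPKM in WT cells), SREBF1 (73.5 and 102 RPKM) and NFE2L2. Beside the same protein-coding shares, 12 of 15 partner and acceptor genes were counted, none was higher and 1 was lower. That gene, SLC9A3R2, encodes a scaffold protein of apical transporters and had 15.6 RPKM in MYOCD cells and 44.7 RPKM in WT cells (log2 change -1.49), whereas its relative SLC9A3R1 had 28.2 and 33.3 RPKM.

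The 40 transporter genes not counted were 20 ABC, 15 SLC22 and 5 SLCO genes, with SLCO1A2 the highest of them at 0.927 RPKM. Listed at 0 in both libraries were 12 of these, which were ABCG8, 9 SLC22 genes and 2 SLCO genes. A value of 0 in a table without counts says only that the gene is listed at 0. In all, the 79 genes summed to 872 RPKM in MYOCD cells and 993 RPKM in WT cells, which was 0.1002% and 0.113% of the table.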

How the data were processed

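RNA of 1 library of A549 cells overexpressing MYOCD and 1 of untreated A549 cells was sequenced after TruSeq library preparation from total RNA, per the labels' protocols. The authors deposited RPKM per gene for both libraries, per the file headers. Per the submitters' processing notes, Bowtie 0.12.2 and the builds GRCh38.p12 and mm8 (a mouse assembly) had a part, with roles not given. Counting tool, gene annotation and strand: not given in the sources used here. Depth is not stated.

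The 57979 rows held 56255 symbols. Of 82 rows matching the rule, 1 symbol stood on several rows and kept that of higher mean RPKM, and 2 pseudogenes (ABCC13 and SLC22A20) were left out. Positions and exon lengths came from GENCODE 29 (GRCh38), promoters from RefSeq (GRCh38.p14). Log2 changes used a pseudocount of 0.5 RPKM, a filter of 1 RPKM in at least 1 library and a 2-fold rule of size, in Python 3.11.15 with pandas 2.3.3, tested on simulated data. With 1 library a group no test, SD or p-value was possible. The counted genes were named, apart from 2 that are not reported here. Fold changes were given for those at 2-fold, the most abundant and the most changed of each role, and, of genes not counted, a preset few and those differing most were named. The members and lists were chosen with earlier results of these data known. Other pseudocounts, filters, scalings and treatments of overlapping models were tried.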

Additional observations from a re-analysis of the deposited data

How the results depend on the processing

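With no replicates, none of these values has an error. The lower calls numbered 5 with a pseudocount of 0.1 and 5 with none (a setting chosen after seeing the data), by adding 2 genes, of which ABCC8 is one, and under both settings the higher calls numbered 4 by adding SLCO1B1. With overlapping or small RNA gene models left out 1 higher (SLCO1C1) and 1 lower (SLCO2B1) call remained, because the other 4 genes were not in that set. A filter of 5 RPKM gave 1 higher call (SLCO1B3), leaving out the SLCO1 genes (also chosen after seeing the data) gave 0, and the 1.5-fold rule gave 6 higher and 6 lower. The SLCO median was 1.31 with a pseudocount of 0.1, 0.65 with 1, 0.18 with a filter of 5 RPKM, 0.76 with a filter on the mean, 0.25 with no filter and 0.18 without overlapping models. The sterol and lipid median was -8.51e-05 with a filter of 5 RPKM, and the SLC22 median 0.0 with no filter. The organelle median turned to 0.074 with a filter of 5 RPKM and 0.036 with no filter, and was -0.29 without overlapping models. The median of all counted members turned to -0.086 without overlapping models. The cause was not tested where the set of genes stayed the same. SLCO2B1 stayed beyond 2-fold in 11 of 11 planned settings that keep the 2-fold rule, ABCB6, ABCG2, SLCO1B3 and SLCO1C1 in 10 and SLCO1B7 in 9. Only the pseudocounts and scalings among these settings could alter the log2 changes of these genes, so the tally is no measure of error. Of 312 values of single genes under the alternatives, 21 moved, by more than 0.1 in log2 or across the 2-fold line. The sign changed in 3 values, of ABCC1 and ABCE1 under scalings, and in 0 values of genes beyond 2-fold. Scalings moved the median of all genes by at most 0.082. No paired analysis was possible because each group has 1 library.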
